A study of Homo sapiens with 12 samples.

Results

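The comparison described here sets MCF10AT cells that carry the first EP300 hairpin, EP300 KD1, against the non-silencing control of the same number, NS1. Its members are the 6 libraries of these groups, 3 of EP300 KD1 and 3 of NS1, of 12 libraries in all, and the 13424 of 29094 accession rows of the count table that passed a low-count filter, each called a gene. MCF10AT is an established human cell line of mammary epithelium that carries HRasG12V, so that knockdown and control cells alike express this activated HRAS. Per the labels, cells were transduced with lentiviral particles carrying an shRNA against EP300 or a non-silencing control and selected with puromycin, and all groups were grown in the same medium with horse serum, epidermal growth factor, insulin, cholera toxin and hydrocortisone. The other groups of the study are EP300 KD2, made with an independent hairpin, and NS2, each with 3 libraries. Which control belongs to which hairpin is not written in the labels, and the shared number was used to set NS1 against EP300 KD1. Nor do they tell whether the triplicates were separate cultures or whether a line was a pool or a clone. The p-values therefore describe the scatter among these 3 libraries a group, and that scatter may be technical.

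EP300 encodes p300, an acetyltransferase that is recruited to enhancers and promoters by many transcription factors and acetylates histones and the factors themselves. It has a close paralogue, CREBBP, which encodes CBP. Mammary epithelial cells of the basal kind are known for keratin filaments, hemidesmosomes and desmosomes, and for a set of epithelial transcription factors; loss of these together with a gain of matrix proteins and vimentin is the pattern known as epithelial to mesenchymal transition.

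The targeted gene was lower in every library of the knockdown. EP300 (NM_001429, chromosome 22, 41092592 to 41180077 on GRCh38) stood at 171.5, 177.4 and 167.3 CPM in NS1 and 107.9, 106.3 and 107.7 CPM in EP300 KD1, expressed as counts scaled to library size with TMM factors (CPM). The EP300 KD1 mean was 62.4% of the NS1 mean, a log2 fold change of -0.68 ± 0.03 (± SE, as for every log2 fold change below), and the libraries of the groups did not overlap. CREBBP stood at 97.2, 99.9 and 94.9 CPM in NS1 and 96.4, 95.3 and 94.6 CPM in EP300 KD1, groups that overlapped, and was not called (log2 fold change -0.03 ± 0.03, adjusted p = 0.445). Of 12 defining mammary epithelial markers KRT8 has several accession rows and is left out, and the other 11 all passed the low-count filter. Their summed level was 10871.5 to 11364.4 CPM in NS1 and 8564.5 to 8849.4 CPM in EP300 KD1. Of these 11 markers 9 fell, EGFR was not called, and LAMB3 rose. The 9 include KRT14, which had few counts.

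Total counts ran from 31396653 to 45606950 over the 6 libraries. A gene was called at an adjusted p under 0.05 in edgeR's quasi-likelihood test, and 8711 genes (64.9% of those tested) were called, 4370 (32.6%) higher and 4341 (32.3%) lower in EP300 KD1. A change of 2-fold or more was called upwards for 785 genes (5.85%) and downwards for 582 (4.34%), of 4-fold or more for 203 and 225, and of 16-fold or more for 21 and 46. The median absolute log2 fold change over all genes tested was 0.24, and the libraries of the groups did not overlap for 4545 genes on the higher side (33.9%) and 4540 on the lower side (33.8%). The share called moved with the level: 35.5% of genes under 1 CPM on average were called, 71.8% of those between 10 and 100 CPM, and 86.7% of those of 1000 CPM or more. Several genes that dividing cells use, among them BRD2 and BRD9, did not pass the filter, and symbols with more than 1 accession row carry few counts. A low or absent count is therefore not read as absent expression, and such symbols are left out of the counts below. Counts of list members called are to be read beside the 32.6% higher and 32.3% lower over all genes tested.

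**Figure D1:**
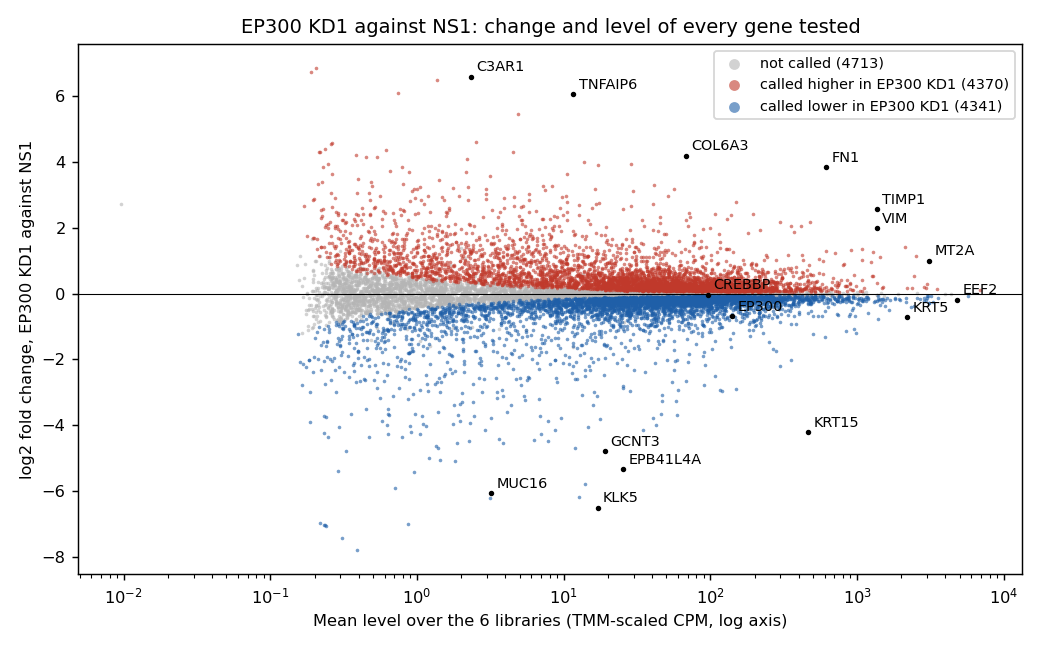
Each point is 1 of the 13424 genes tested, placed by its mean level over the 6 libraries (x axis, TMM-scaled CPM on a log axis) and its log2 fold change in EP300 KD1 against NS1 (y axis); red and blue points were called higher and lower at an adjusted p under 0.05, grey points were not called. FN1, TIMP1 and VIM are abundant genes far above 0, KRT15 is an abundant gene far below it, and EP300 itself lies at a log2 fold change of -0.68.

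Among the 12 genes with the largest rises TNFAIP6, a hyaluronan-binding protein induced in inflammation, stood at 0.35, 0.369 and 0.309 CPM in NS1 and 25.3, 21.1 and 22.3 CPM in EP300 KD1, and no library of one group came near the other (log2 fold change 6.06 ± 0.15). C3AR1, the receptor for the complement fragment C3a, had 5 counts over the NS1 libraries and 466 over those of EP300 KD1, or 0, 0.0615 and 0.0662 CPM in NS1 and 4.94, 4.67 and 4.33 CPM in EP300 KD1. MMP9, a gelatinase, had 3 counts in NS1 and 273 in EP300 KD1, a ratio of 102 with a 95% counting interval of 34.4 to 495. COL6A3, a chain of collagen VI, stood at 7.88, 6.49 and 6.95 CPM in NS1 and 125, 133.9 and 129.2 CPM in EP300 KD1 (4.19 ± 0.06), and SPARC, a collagen-binding matrix protein, at 1.55, 1.44 and 1.74 CPM in NS1 and 25, 27.6 and 24.5 CPM in EP300 KD1 (4.01 ± 0.10). For all genes named for the size of their change, here and in the next 2 paragraphs, separate libraries were a condition of entry. Genes of the lists are named by smallest p, so separate libraries add no further support there either. Fibronectin, FN1, was the most abundant of these genes in reads, at 82.9, 83.8 and 74.9 CPM in NS1 and 1109, 1198 and 1141 CPM in EP300 KD1, a 14.3-fold rise. The other genes in this set were CHRNA9, a nicotinic receptor subunit (5.44 ± 0.18), SFTPB, a surfactant protein (4.61 ± 0.26), the growth factor receptors PDGFRA (4.31 ± 0.15) and TEK (4.08 ± 0.24), GFPT2, an enzyme of the hexosamine pathway (3.94 ± 0.07), and the heat shock protein DNAJB5 (3.91 ± 0.09). The controls differed too for 6 of these 12 genes: NS2 was above NS1 by 1.14 ± 0.23, 1.31 ± 0.37 and 1.09 ± 0.09 on the log2 scale at TNFAIP6, SFTPB and GFPT2, and by 0.37 ± 0.08, 0.43 ± 0.13 and 0.47 ± 0.12 at COL6A3, SPARC and DNAJB5.

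Among the 12 genes with the largest falls KLK5, a secreted serine protease, stood at 34.4, 31.7 and 34.9 CPM in NS1 and 0.449, 0.258 and 0.406 CPM in EP300 KD1, and KLK7, another protease of this family, at 26, 23.3 and 26.5 CPM in NS1 and 0.289, 0.487 and 0.261 CPM in EP300 KD1. Their log2 fold changes were -6.50 ± 0.11 and -6.17 ± 0.13, and KLK10 (-6.22 ± 0.27) and KLK6 (-5.78 ± 0.11) fell alongside them. MUC16, a membrane mucin, went from 6.28 ± 0.207 to 0.0885 ± 0.0476 CPM (mean ± SD, n = 3 as for every such value below; -6.07 ± 0.26). EPB41L4A, a protein of the band 4.1 family, stood at 47.9, 50.5 and 49.5 CPM in NS1 and 1.32, 1.18 and 1.16 CPM in EP300 KD1, a 40.5-fold fall. GCNT3, which builds branched mucin glycans, fell from 36.8 ± 1.58 to 1.33 ± 0.0539 CPM, and GABRP, a GABA receptor subunit found in epithelia, from 23.2 ± 1 to 0.889 ± 0.269 CPM. KRT13 (-5.00 ± 0.27), a keratin of non-cornifying stratified epithelium, ATP6V1B1 (-5.09 ± 0.28), a proton pump subunit, PHACTR3 (-5.07 ± 0.26), which binds actin and protein phosphatase 1, and the long non-coding RNA LINC00639 (-4.69 ± 0.27) completed the set. All 12 were called lower in NS2 than in NS1 as well, at log2 values between -0.73 and -1.56. With both controls pooled, KLK5 fell by 6.04 and MUC16 by 5.40 on the log2 scale.

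In reads, the largest shifts were carried by a few abundant genes. MT2A, a metallothionein that binds zinc and copper, stood at 2110, 1957 and 2116 CPM in NS1 and 4047, 4127 and 4186 CPM in EP300 KD1, and TIMP1, an inhibitor of metalloproteinases, at 389.4, 383.9 and 399.2 CPM in NS1 and 2203, 2510 and 2267 CPM in EP300 KD1. Separate libraries were a condition for naming both. TGFBI, a matrix protein induced by TGF-beta, rose by 1929 CPM, S100A6, a calcium-binding protein, by 1884 CPM, and vimentin, VIM, the intermediate filament of mesenchymal cells, by 1615 CPM. The EGF receptor ligand AREG rose from 913.2 ± 6.33 to 1955 ± 36.3 CPM. On the other side KRT15, a basal keratin, stood at 861.4, 873.6 and 900.4 CPM in NS1 and 49.5, 46.8 and 46.5 CPM in EP300 KD1, an 18.5-fold fall. SLC7A5, the main transporter of large neutral amino acids, stood at 1440, 1296 and 1377 CPM in NS1 and 592.4, 623.4 and 585.7 CPM in EP300 KD1, and PTMA, prothymosin alpha, a nuclear protein of dividing cells, at 1265, 1286 and 1302 CPM in NS1 and 608, 609.7 and 613 CPM in EP300 KD1. PTMA was thus lower in every EP300 KD1 library, at about equal levels in all 3 of them. Falls of smaller proportion but many reads were those of ANXA1 (-0.78 ± 0.02), the hair keratin KRT81 (-0.40 ± 0.06) and the elongation factor EEF2 (-0.19 ± 0.02); DST, a cytolinker of hemidesmosomes, fell further (-1.13 ± 0.02). These differences in CPM are not corrected for gene length and do not rank the proteins.

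**Figure D2:**
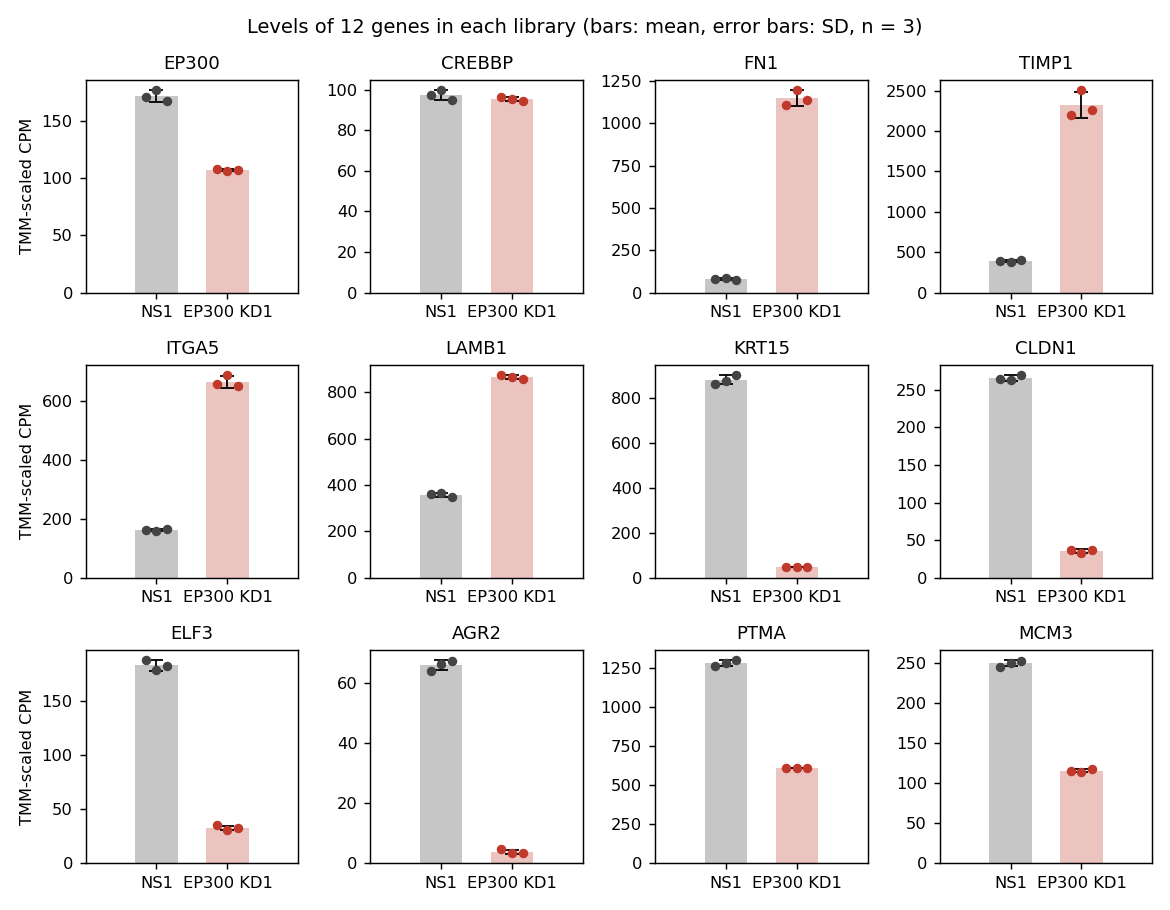
Points are the level in each library (TMM-scaled CPM, y axis from 0) of 12 genes in NS1 and EP300 KD1, bars their means and error bars the SD (n = 3). FN1, TIMP1, ITGA5 and LAMB1 are higher and EP300, KRT15, CLDN1, ELF3, AGR2, PTMA and MCM3 lower in every EP300 KD1 library, while the CREBBP values overlap.

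More genes of the extracellular matrix rose than fell. Of the matrix glycoproteins 17 of 22 listed were tested: 11 rose, each at least 2-fold, 4 fell and 2 were not called, with a median log2 fold change of 1.42 against -0.01 over all genes tested. Beside FN1, SPARC and TGFBI the risers included FBN2, a fibrillin of elastic microfibrils, at 23.1, 22.4 and 21.5 CPM in NS1 and 125, 115.2 and 122.1 CPM in EP300 KD1, DCN, the proteoglycan decorin, at 7.21, 7.16 and 7.55 CPM in NS1 and 43.9, 43.8 and 42.3 CPM in EP300 KD1, and VCAN, the proteoglycan versican, at 52.2, 52.2 and 49.4 CPM in NS1 and 178, 180.1 and 177.6 CPM in EP300 KD1. All 3 were higher in every EP300 KD1 library. The 4 that fell were THBS1 at -0.68, FBLN1 at -1.95, HSPG2 at -0.47 and EFEMP1 at -0.64. Of 11 collagen genes tested 8 rose and 2 fell, with a median of 0.38. COL4A1 and COL4A2, the chains of basement membrane collagen IV, rose from 91 ± 2.57 to 343.1 ± 5.86 and from 284.3 ± 10.5 to 573.9 ± 12.8 CPM, and COL6A1 from 9.63 ± 0.199 to 30 ± 4.01 CPM. COL12A1, a collagen that decorates fibrils, fell from 149.5 ± 8.34 to 33.1 ± 1.78 CPM, and COL8A1 by 0.34 on the log2 scale. Of the enzymes that hydroxylate and cross-link collagen, 8 of 11 tested rose, with a median of 0.33: LOXL2 (1.34 ± 0.04) and PLOD2 (0.78 ± 0.03) rose most among those of smallest p, and LOXL3, LOXL4 and PLOD3 were not called. Of the 10 fibroblast markers 5, COL1A2, COL3A1, LUM, THY1 and DPT, had no count in any of the 6 libraries, and the summed level of the 10 was 56.7 to 59.8 CPM in NS1 and 109.3 to 113.8 CPM in EP300 KD1. DCN made up most of that difference, rising by 36 CPM.

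Laminins and integrins, the ligands and receptors through which epithelium holds its basement membrane, mostly rose as well. Of 9 laminin chains tested 6 rose, among them LAMA1 (1.38 ± 0.21), LAMC1 (0.60 ± 0.02) and LAMB3 (0.90 ± 0.04). LAMB1, a chain of several basement membrane laminins, stood at 360.1, 364.1 and 347.6 CPM in NS1 and 875.3, 867.2 and 859.5 CPM in EP300 KD1, and LAMA3, the alpha chain of the laminin that anchors hemidesmosomes, at 728.3, 735.8 and 689.2 CPM in NS1 and 1408, 1551 and 1414 CPM in EP300 KD1. Both were higher in every EP300 KD1 library. LAMA5 fell (-0.24 ± 0.06), and LAMA2 and LAMB2 were not called. All 5 integrin alpha chains tested rose. ITGA5, the alpha chain of the fibronectin receptor, stood at 162.5, 158.4 and 164.8 CPM in NS1 and 657.9, 686.7 and 648 CPM in EP300 KD1, and ITGAV, which pairs with several beta chains, at 171.6, 169.5 and 168.1 CPM in NS1 and 285.1, 277.6 and 284.9 CPM in EP300 KD1. Among the beta chains ITGB3 rose from 1.35 ± 0.109 to 13.1 ± 0.415 CPM and ITGB1 from 591.5 ± 20.8 to 761.4 ± 2.24 CPM, while ITGB5 (-0.10 ± 0.02), ITGB6 (-0.38 ± 0.02) and ITGB8 (-0.29 ± 0.03) fell. The hemidesmosome itself was split: DST, COL17A1 (-0.68 ± 0.03) and ITGB4 (-0.16 ± 0.04) fell, PLEC (0.17 ± 0.05) and ITGA6 (0.09 ± 0.02) rose slightly and CD151 was not called. The rises of these 2 genes did not hold under every setting: with both controls pooled ITGA6 was called lower, at -0.05, and PLEC was not called, at 0.05, nor was PLEC called without EP300 KD1 replicate 2, at 0.10.

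Among proteases that cut matrix, the ADAM and ADAMTS genes mostly rose and the metalloproteinases were split. Of 10 ADAM and ADAMTS proteases tested 8 rose, with a median of 1.07. ADAM19 stood at 24, 24.6 and 22.9 CPM in NS1 and 109.1, 117.5 and 109.4 CPM in EP300 KD1, ADAM8 rose from 17.8 ± 0.0863 to 42.3 ± 3.25 CPM and ADAMTS12 from 1.31 ± 0.174 to 4.49 ± 0.193 CPM, while ADAMTS1 and ADAM17 were not called. TIMP1, TIMP2 (1.13 ± 0.03) and the membrane inhibitor RECK (1.52 ± 0.10) rose. TIMP3, which binds matrix, fell from 140 ± 3.11 to 37.5 ± 0.808 CPM. Only 5 of 12 metalloproteinases were tested, and 2 rose and 2 fell: MMP9 and MMP14 (0.21 ± 0.03), the membrane-anchored collagenase, rose, MMP7, an epithelial matrilysin, fell from 7.4 ± 0.423 to 0.314 ± 0.121 CPM. MMP2 fell from 7.36 ± 0.846 to 6.02 ± 0.165 CPM but was not called with both controls pooled, at 0.03, or without NS1 replicate 2, at -0.20. Of the plasminogen system, urokinase PLAU (1.35 ± 0.03) and its receptor PLAUR (0.21 ± 0.03) rose and tissue activator PLAT (-0.49 ± 0.03) fell.

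Epithelial transcription factors fell. Of 20 listed 17 were tested and 15 fell, with a median log2 fold change of -0.91. ELF3, an ETS factor of epithelia, stood at 187.3, 177.8 and 182 CPM in NS1 and 34.7, 30.8 and 31.8 CPM in EP300 KD1, FOXA1, a pioneer factor of luminal cells, at 47.1, 50.7 and 50.1 CPM in NS1 and 14.8, 15.3 and 16.3 CPM in EP300 KD1, and GATA3, a luminal regulator, at 53.5, 53.8 and 57 CPM in NS1 and 20.3, 22.5 and 19.4 CPM in EP300 KD1. The groups were separate for all 3. GRHL2, which maintains epithelial junction genes, fell from 89.1 ± 2.43 to 41 ± 0.433 CPM and KLF4 from 53.1 ± 1.59 to 23.8 ± 1.63 CPM. TP63, the basal regulator, fell less (-0.76 ± 0.04), GRHL3 rose (0.50 ± 0.14) and OVOL1 was not called (-0.32 ± 0.16). Mesenchymal factors were split, with 7 of 13 tested rising, 4 falling and a median of 0.11. ZEB1, a repressor of epithelial genes, stood at 1.98, 2.86 and 2.65 CPM in NS1 and 10.8, 12.8 and 12.4 CPM in EP300 KD1, and SNAI1, a repressor of the same class, at 7.56, 7.84 and 7.86 CPM in NS1 and 19.9, 19 and 18.8 CPM in EP300 KD1. Both were higher in every EP300 KD1 library. TWIST1 (0.54 ± 0.06) and TWIST2 (0.45 ± 0.07) rose less, and FOXC1 at -0.84, SOX9 at -0.63, RUNX1 at -0.41 and FOSL1 at -0.17 fell. ZEB2 has several accession rows and is not counted.

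Keratins and products of stratified epithelium fell with few exceptions. Of 8 basal and stress keratins 5 fell: beside KRT15 and KRT5, KRT17 stood at 725.5, 697 and 704.5 CPM in NS1 and 309.9, 296.3 and 292.5 CPM in EP300 KD1. KRT6A rose from 341.9 ± 15 to 488.1 ± 16.7 CPM, although KRT6A, KRT6B and KRT6C are near-identical and reads may be split between them. KRT14, which was called lower, was counted at only 1.03 ± 0.0869 CPM in NS1, and neither its level nor its fall is interpreted. All 5 simple-epithelium keratins tested fell, from KRT7 at -0.26 ± 0.02 to KRT19 at -2.68 ± 0.18. Of 12 envelope and suprabasal genes tested, of 20 listed, 9 fell, among them KRT10 (-1.09 ± 0.04) and the transglutaminase TGM1 (-1.10 ± 0.12), and SBSN, suprabasin, rose from 0.5 ± 0.0899 to 2.63 ± 0.389 CPM. Kallikreins fell in 5 of 7 tested: beside those above, KLK9 had 52 counts in NS1 and 0 in EP300 KD1, at least 15.5-fold lower against a floor of 3 counts over the group. KLK1 rose (0.81 ± 0.21) and KLK14 was not called. Serine protease inhibitors moved both ways, 6 up and 6 down of 12: SERPINA1 stood at 14.7, 11.9 and 14.4 CPM in NS1 and 56, 57.6 and 56.4 CPM in EP300 KD1, SLPI, a secreted leukocyte protease inhibitor, at 120.5, 119.6 and 125 CPM in NS1 and 53.3, 52.8 and 53 CPM in EP300 KD1, and SERPINB13 fell from 18 ± 0.226 to 1.3 ± 0.221 CPM.

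Cell junction genes fell more modestly. Of 9 desmosome genes tested 8 fell, with a median of -0.31. The largest falls among those of smallest p were DSC2 (-0.85 ± 0.03), a desmosomal cadherin, and DSG3 (-0.63 ± 0.03), and DSG2 rose (0.24 ± 0.03). Of 14 tight junction genes 9 fell, 2 rose and 3 were not called. CLDN1, a barrier claudin, stood at 263.7, 262.6 and 269.5 CPM in NS1 and 37.4, 32.3 and 36.8 CPM in EP300 KD1, and CLDN8 fell from 13.4 ± 0.293 to 0.693 ± 0.175 CPM. TJP3 fell from 29.3 ± 1.31 to 9.97 ± 1.06 CPM, and CLDN12 at 0.37 and CLDN23 at 0.77 rose; CLDN23 was not called with DESeq2, at 0.79 (adjusted p = 0.121), nor in 3 of the 6 fits that left out a library, at 0.52 without NS1 replicate 1 and 0.65 and 0.77 without EP300 KD1 replicates 1 and 3. E-cadherin, CDH1, stood at 388, 387.4 and 374.3 CPM in NS1 and 211.6, 210.5 and 211.9 CPM in EP300 KD1, and N-cadherin, CDH2, at 17.9, 18.4 and 17.9 CPM in NS1 and 50.9, 50.2 and 52 CPM in EP300 KD1; the first was lower and the second higher in every EP300 KD1 library. P-cadherin, CDH3, fell slightly (-0.11 ± 0.03), and the catenins changed by -0.17 ± 0.02 (CTNNA1) and 0.13 ± 0.02 (CTNNB1).

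Secreted and luminal products fell. All 10 tested of 22 listed fell at least 2-fold, with a median of -3.96, and 11 others lay below the filter. AGR2, a disulfide isomerase needed for mucin production, stood at 64.2, 66.6 and 67.4 CPM in NS1 and 4.56, 3.27 and 3.43 CPM in EP300 KD1, LCN2, lipocalin 2, at 42.9, 45.3 and 44.5 CPM in NS1 and 6.23, 6.48 and 5.55 CPM in EP300 KD1, CEACAM1, a cell adhesion molecule, at 93.3, 96.4 and 93.4 CPM in NS1 and 14.6, 15.2 and 14.4 CPM in EP300 KD1, and MUC1, a membrane mucin, at 202.6, 206.5 and 213.2 CPM in NS1 and 71.4, 62.5 and 69.1 CPM in EP300 KD1. No gene of these 4 overlapped between the groups. The E-box CACCTG, known as a site of the ZEB1 and SNAI1 repressors, was found on either strand in 5 of the 10 promoter windows of these genes (50.0%), in 2 of 9 windows of the epithelial factors called lower (22.2%), in 23.7% of those of genes at least 2-fold lower and in 16.0% of those of genes tested, with windows of 250 bases before the start. The AP-1 element TGANTCA was found in 1 of the same 10 windows (10.0%) and in 0 of the 9 of epithelial factors. It was found in 10.4% of windows of genes at least 2-fold lower, 6.99% of those at least 2-fold higher and 4.21% of those tested. Whether any factor acts through these sites was not tested.

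The cytoskeleton moved the other way in part: of 14 cytoskeletal genes listed apart from the actins and regulators below, 10 rose and 3 fell, ACTN4 at -0.22, MYH9 at -0.30 and EZR at -0.24. FLNA, filamin A, stood at 31.9, 30.7 and 30.6 CPM in NS1 and 55.1, 64.2 and 57.7 CPM in EP300 KD1, and the neuronal-type tubulin TUBB3 at 55.8, 49.3 and 52.1 CPM in NS1 and 98.8, 112.5 and 104.5 CPM in EP300 KD1. Of 12 actins and actin regulators tested 5 rose, SMTN, smoothelin, most among those of smallest p (1.14 ± 0.05), and 4 fell.

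**Figure D3:**
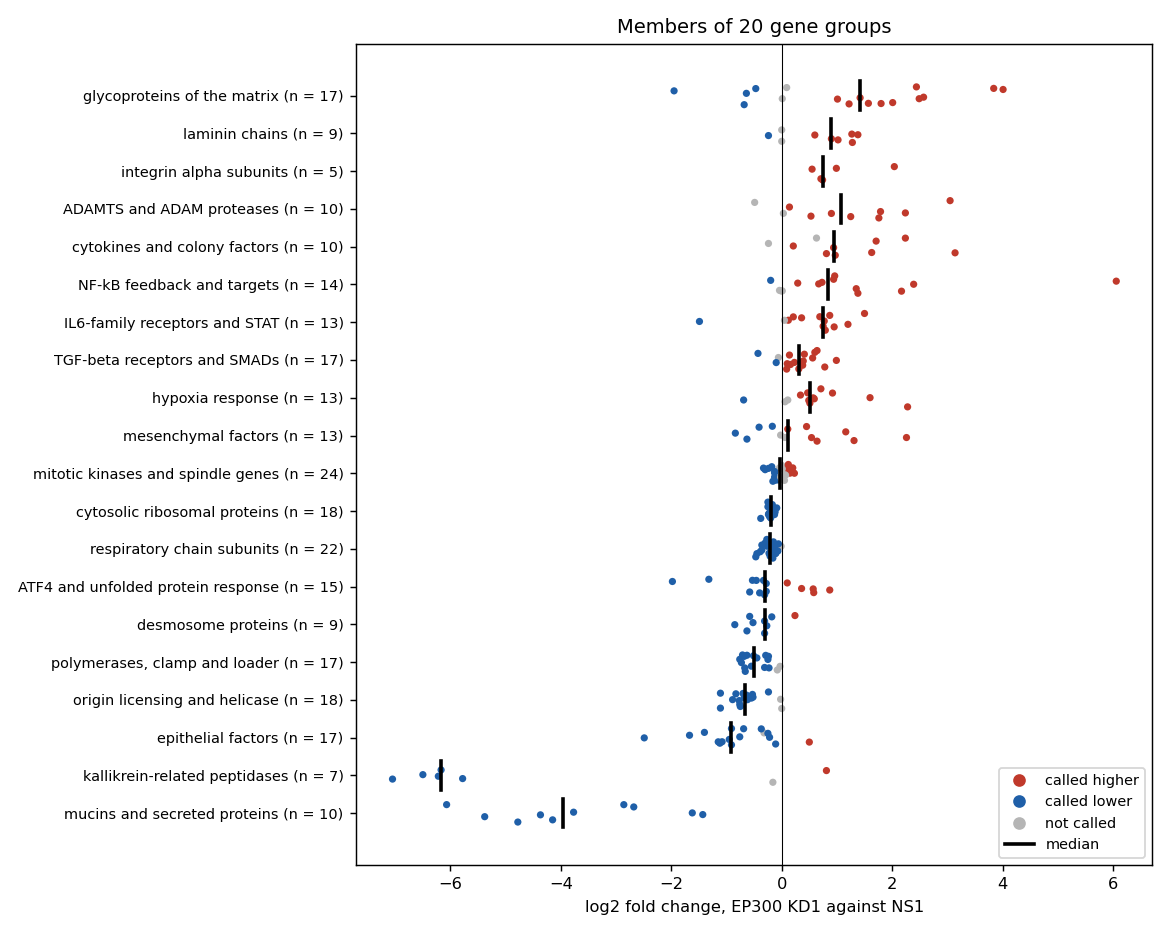
Each point is a tested member of 1 of 20 gene groups, placed by its log2 fold change in EP300 KD1 against NS1 (x axis); red points were called higher, blue lower, grey not called, the black line is the median of the group and n the members tested. Matrix glycoproteins have a median of 1.42, origin licensing genes of -0.66 and mucins and secreted proteins of -3.96.

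Genes of inflammation moved in both directions, with most of the cytokines and colony factors higher. Interleukin 1 acts through IL1R1 and MYD88 to release NF-kB, which induces chemokines, cytokines and its own inhibitors NFKBIA and TNFAIP3. Of the 5 ligands and antagonists tested 3 rose and 2 fell, with a median log2 fold change of 2.05, or 1.69 with both controls pooled. IL1B stood at 7.53, 8.15 and 7.35 CPM in NS1 and 71.7, 80.2 and 71.9 CPM in EP300 KD1, IL1A at 16.9, 14.4 and 14.5 CPM in NS1 and 75.9, 78.8 and 73.3 CPM in EP300 KD1, and IL33, a nuclear alarmin, at 3.36, 3.35 and 3.35 CPM in NS1 and 13.7, 14.7 and 13.3 CPM in EP300 KD1; all 3 were higher in every EP300 KD1 library. The antagonist IL1RN (-1.23 ± 0.11) and IL18 (-0.74 ± 0.04) fell. IL1A was also higher in NS2 than in NS1, and it fell with EP300 KD2, as given below. Of 9 receptors and adaptors tested 4 rose, 2 fell and 3 were not called. The receptor IL1R1 stood at 36.9, 38 and 36.6 CPM in NS1 and 90.7, 85.6 and 90.9 CPM in EP300 KD1, and its adaptor MYD88 rose (0.32 ± 0.03). IL18R1, the interleukin 18 receptor (1.43 ± 0.11), and the kinase IRAK2 (0.44 ± 0.07) rose as well. The kinase IRAK4 (-0.18 ± 0.05) and CASP1 (-0.28 ± 0.04), the protease that matures IL1B, fell, but CASP1 was not called with both controls pooled, at -0.04. Of 9 chemokines tested, of 17 listed, 4 rose, 2 fell and 3 were not called, with a median of 0.1. CXCL3 stood at 12.6, 12.3 and 11 CPM in NS1 and 55.5, 60.2 and 53.3 CPM in EP300 KD1, the neutrophil attractant CXCL8 at 40.9, 41.2 and 38 CPM in NS1 and 116.3, 119 and 110.6 CPM in EP300 KD1, and CCL20 and CXCL2 rose from 16.5 ± 0.34 to 73.4 ± 3.94 and from 23.1 ± 1.16 to 46 ± 1.72 CPM. CXCL10 (-1.77 ± 0.28) and CCL28 (-0.45 ± 0.11) fell. Of 10 cytokines and colony factors tested 8 rose: IL6 stood at 1.63, 1.57 and 1.39 CPM in NS1 and 13.5, 12.6 and 14.3 CPM in EP300 KD1, and CSF1, the macrophage growth factor, at 32.4, 32.5 and 32 CPM in NS1 and 57, 57.4 and 54.9 CPM in EP300 KD1. IL23A (0.63 ± 0.34) and TNFSF15 (-0.24 ± 0.27) were not called.

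Of the NF-kB subunits and kinases 4 of 9 tested rose and 1 fell, none by 2-fold. RELA was not called (-0.05 ± 0.04), NFKB1 rose by 0.11 ± 0.03 and NFKB2 by 0.49 ± 0.04. Of 14 feedback genes and targets tested 10 rose, with a median of 0.84. SOD2, the mitochondrial superoxide dismutase, stood at 176.5, 174.2 and 170.4 CPM in NS1 and 818.7, 731.5 and 795.5 CPM in EP300 KD1, TNFAIP3, the ubiquitin-editing inhibitor A20, at 48.4, 47.1 and 44.5 CPM in NS1 and 122.1, 123.7 and 117.1 CPM in EP300 KD1, and NFKBIA at 132.6, 130.5 and 130 CPM in NS1 and 250.9, 256.7 and 246.6 CPM in EP300 KD1. Each was separate between the groups, and ICAM1, an adhesion molecule, rose from 4.1 ± 0.369 to 21.6 ± 1.08 CPM. BCL3 fell (-0.20 ± 0.05), and TNFAIP2, BIRC2 and TRAF2 were not called. The promoters of 3 risers are shown because each holds a match to the NF-kB element, read on either strand, which was found in 7 of 21 promoter windows of the inflammatory genes called higher (33.3%), in 0.605% of 9593 windows of genes tested and in 0.546% of all 27305 windows. The windows are the 250 bases before the gene's start in RefSeq on GRCh38.p14, the capitals mark the match, and a match is a description of letters, not of binding. The lists behind this group hold known NF-kB targets, so a high share follows in part from how the genes were chosen. The share among listed genes that were not called higher was not taken. TNFAIP3 lies on the plus strand, at chr6:137867009-137867258, CXCL3 on the minus strand, at chr4:74038690-74038939, and NFKBIA on the minus strand, at chr14:35404750-35404999.
TNFAIP3: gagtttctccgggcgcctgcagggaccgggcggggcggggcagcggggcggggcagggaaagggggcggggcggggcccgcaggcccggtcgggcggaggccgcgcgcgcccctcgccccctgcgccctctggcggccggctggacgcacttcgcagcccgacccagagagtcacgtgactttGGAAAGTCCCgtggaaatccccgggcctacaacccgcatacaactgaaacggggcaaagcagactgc
CXCL3: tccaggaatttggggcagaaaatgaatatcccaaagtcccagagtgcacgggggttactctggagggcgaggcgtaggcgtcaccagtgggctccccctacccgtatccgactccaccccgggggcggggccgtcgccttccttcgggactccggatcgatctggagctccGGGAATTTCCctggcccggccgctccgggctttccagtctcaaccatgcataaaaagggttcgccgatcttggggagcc
NFKBIA: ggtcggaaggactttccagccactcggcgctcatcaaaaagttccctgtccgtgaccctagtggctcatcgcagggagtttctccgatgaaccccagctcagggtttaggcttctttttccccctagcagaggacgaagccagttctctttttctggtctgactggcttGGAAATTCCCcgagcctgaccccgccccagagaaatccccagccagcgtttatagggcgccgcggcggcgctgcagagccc

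Genes of the IL6 family pathway rose in 11 of 13 tested, with a median of 0.75. OSMR, the oncostatin M receptor, stood at 235.8, 242.8 and 234 CPM in NS1 and 390.2, 367.9 and 391.8 CPM in EP300 KD1, LIFR rose from 25.8 ± 0.651 to 59.3 ± 6.42 CPM and the feedback inhibitor SOCS3 from 10.4 ± 0.487 to 29.7 ± 0.8 CPM. STAT3 was not called (0.05 ± 0.03), and the kinase PIM1 fell from 21 ± 0.595 to 7.46 ± 0.222 CPM. In the prostaglandin and lipoxygenase pathway 4 rose and 5 fell of 10: PTGS2, the inducible cyclooxygenase, rose from 1.81 ± 0.157 to 8.61 ± 0.862 CPM and the lipoxygenase ALOX15B from 15 ± 0.573 to 37.9 ± 0.402 CPM, whereas the prostaglandin E synthases PTGES (-0.63 ± 0.02) and PTGES2 (-0.70 ± 0.03) fell. Complement was likewise split: the early proteases C1R (2.72 ± 0.07) and C1S (1.70 ± 0.11) rose, and C3, the central component, fell from 1079 ± 18.2 to 668.2 ± 24.8 CPM. Of 13 antiviral effectors of the interferon response 5 rose and 3 fell, OAS1 by the most (-1.95 ± 0.06), and of 14 sensors and factors 9 rose, with a median of 0.28. Leukocyte markers were measured beside these groups: CD3E had no count in the 6 libraries, the summed level of the 9 markers with a row was 54.4 to 66.6 CPM in NS1 and 75.7 to 83.4 CPM in EP300 KD1, CD68 rose (1.67 ± 0.07), LCP1 rose (1.58 ± 0.12) and CD14 fell (-0.65 ± 0.06). Their part in the inflammatory values was not tested.

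Growth factor genes moved in both directions. EGFR itself was not called (0.02 ± 0.03), ERBB3 fell (-0.50 ± 0.04), and of 9 ligands of the EGF receptor family tested 4 rose and 2 fell. EREG, epiregulin, stood at 13.3, 12.6 and 12.8 CPM in NS1 and 38.3, 35.8 and 36.6 CPM in EP300 KD1 and HBEGF, the heparin-binding ligand, at 55.6, 48.4 and 47.9 CPM in NS1 and 22.9, 27.8 and 23.8 CPM in EP300 KD1; the first was higher and the second lower throughout. The feedback inhibitor ERRFI1 fell from 876.3 ± 14.4 to 573 ± 12.3 CPM. Of 15 other receptor kinases tested 10 rose and 4 fell: AXL stood at 164.7, 160.1 and 160.5 CPM in NS1 and 256.5, 263 and 258.8 CPM in EP300 KD1, FGFR1 rose from 14.4 ± 0.593 to 33.9 ± 1.74 CPM and EPHB2 from 30.4 ± 1.13 to 91.1 ± 3.64 CPM, and EPHA2 fell (-0.58 ± 0.03). Feedback genes of the RAS and MAPK pathway, downstream of the HRasG12V that all groups carry, were split, 4 up and 5 down of 10: DUSP6, the ERK phosphatase, rose (0.63 ± 0.02) and DUSP4 fell (-0.91 ± 0.02). KITLG (-1.31 ± 0.05) and the FGF carrier FGFBP1 (-1.43 ± 0.04) fell, and VEGFA rose (0.51 ± 0.03).

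TGF-beta receptors and SMADs, the transmitters of that pathway, rose by small amounts in 14 of 17 tested, with a median of 0.31; TGFBR1 rose by 0.60 ± 0.04, the repressor SKI by 0.78 ± 0.04, and BMPR1B at -0.43 and SMAD2 at -0.10 fell. Among the ligands and their binding proteins the changes were larger and opposed. TGFB1 stood at 26.8, 26.9 and 28.7 CPM in NS1 and 109.8, 120.5 and 110.8 CPM in EP300 KD1, and TGFB2 at 48.8, 52.1 and 50.8 CPM in NS1 and 10.1, 9.26 and 10.9 CPM in EP300 KD1. The latent binding protein LTBP1 stood at 63.6, 61.3 and 60.1 CPM in NS1 and 335.2, 303.6 and 342.4 CPM in EP300 KD1, and FSTL1, a follistatin-like protein, rose from 40.4 ± 1.43 to 159.1 ± 2.58 CPM. All 4 were separate between groups. Of the Hippo pathway, WWTR1, which encodes TAZ, rose (0.34 ± 0.02), VGLL3 fell (-1.23 ± 0.07), and the targets were split, 6 up and 5 down of 13, with the ectonucleotidase NT5E, or CD73, at 135.6, 142.1 and 136.5 CPM in NS1 and 556.7, 584.4 and 575.7 CPM in EP300 KD1. Notch genes fell at NOTCH1 (-0.51 ± 0.04) and its ligands JAG1 (-0.63 ± 0.03) and JAG2 (-0.55 ± 0.05) and rose at NOTCH2 (0.32 ± 0.02) and NOTCH3 (0.75 ± 0.05). Of the Wnt ligands tested WNT5A rose (1.84 ± 0.15) and WNT7B fell (-1.61 ± 0.09), and 7 of 16 receptors and antagonists moved each way, ROR1 furthest among those of smallest p (-1.85 ± 0.06). IGFBP3, which binds insulin-like growth factors, fell from 76 ± 5.8 to 5.48 ± 1.4 CPM, and IGFBP4 rose from 3.01 ± 0.124 to 15 ± 0.181 CPM.

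DNA replication genes fell almost throughout. Origins are licensed by loading of the MCM helicase with CDC6 and CDT1, and the clamp PCNA then holds the polymerases; E2F factors are known to induce these genes at the start of S phase. Of 18 licensing and helicase genes tested 16 fell, of 17 polymerase, clamp and loader genes 15, and of 9 genes of nucleotide supply 8; the medians were -0.66, -0.51 and -0.2. MCM3 stood at 245.5, 250.8 and 253.2 CPM in NS1 and 115.4, 113.7 and 117.3 CPM in EP300 KD1, PCNA at 272.4, 278.7 and 274.4 CPM in NS1 and 166.2, 162.6 and 168.8 CPM in EP300 KD1, CDC6 at 64.7, 67.4 and 65.4 CPM in NS1 and 36.9, 38.6 and 39.9 CPM in EP300 KD1 and TK1, thymidine kinase, at 90.7, 88.2 and 91.6 CPM in NS1 and 55.7, 57.1 and 53.3 CPM in EP300 KD1. No EP300 KD1 library reached an NS1 library for these 4. The other 5 genes, ORC4, ORC5, PRIM2, RFC1 and DCK, were not called. The promoters of MCM3, PCNA and GINS2, a subunit of the helicase complex that fell by 0.83 on the log2 scale, are shown because each holds the E2F element, TTCCCGCC read on either strand, which was found in 7 of 34 windows of the replication genes called lower (20.6%), in 4.33% of the windows of genes tested and in 2.77% of all windows. All 3 genes lie on the minus strand, and the windows are chr6:52284743-52284992 for MCM3, chr20:5126623-5126872 for PCNA and chr16:85688955-85689204 for GINS2. Replication genes are known E2F targets, so a high share of this element follows in part from their choice.
MCM3: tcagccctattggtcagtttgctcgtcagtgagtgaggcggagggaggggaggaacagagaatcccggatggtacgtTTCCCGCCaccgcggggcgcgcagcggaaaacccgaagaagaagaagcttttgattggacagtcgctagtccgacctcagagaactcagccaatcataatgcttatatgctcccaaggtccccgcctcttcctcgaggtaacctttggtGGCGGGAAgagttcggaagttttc
PCNA: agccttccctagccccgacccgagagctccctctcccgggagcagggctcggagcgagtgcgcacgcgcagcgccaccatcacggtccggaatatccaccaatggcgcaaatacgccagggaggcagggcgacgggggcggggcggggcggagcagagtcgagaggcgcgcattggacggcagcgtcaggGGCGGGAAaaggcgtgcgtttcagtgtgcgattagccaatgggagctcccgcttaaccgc
GINS2: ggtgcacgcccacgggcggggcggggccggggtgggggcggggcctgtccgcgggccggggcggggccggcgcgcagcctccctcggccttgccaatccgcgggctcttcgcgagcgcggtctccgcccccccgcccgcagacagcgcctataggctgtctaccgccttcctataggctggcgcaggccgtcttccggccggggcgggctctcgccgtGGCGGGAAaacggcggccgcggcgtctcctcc

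The E2F family itself moved in both directions. E2F2 stood at 19.1, 17.8 and 19.5 CPM in NS1 and 4.36, 3.98 and 3.98 CPM in EP300 KD1 and E2F1 at 32.5, 30.8 and 33.1 CPM in NS1 and 14, 15.2 and 15 CPM in EP300 KD1, both lower in every EP300 KD1 library, and the pocket protein RBL1 fell (-0.77 ± 0.05). E2F5 (0.33 ± 0.05) and RBL2 (0.13 ± 0.03) rose, and E2F3, TFDP2 and RB1 were not called. Of 9 cyclins and kinases of the G1 phase tested 6 fell, none by as much as 2-fold, among them CCNE2 (-0.54 ± 0.06) and CDK2 (-0.31 ± 0.03). The CDK inhibitor CDKN1A, or p21, rose from 300.7 ± 10.6 to 430.8 ± 3.53 CPM. Mitotic genes moved both ways: of 24 tested 11 fell, 5 rose and 8 were not called, the median was -0.03, and the largest change among those of smallest p was that of CDK1 (-0.33 ± 0.04). MKI67 (0.00 ± 0.03), TOP2A (0.01 ± 0.03) and AURKA (0.00 ± 0.03) were not called. Targets of p53 were split, 7 up and 6 down of 15, with PLK2 lowest among those of smallest p (-1.18 ± 0.06). MCL1, an inhibitor of cell death, stood at 631.7, 603.9 and 602.2 CPM in NS1 and 1558, 1549 and 1558 CPM in EP300 KD1, the largest change in the BCL2 family among the members of smallest p.

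Acetyltransferases, deacetylases and acetyl readers were called about as often as other genes. Of the 34 tested, EP300 among them, 9 were called higher and 12 lower, with a median of -0.02. Over all genes tested 32.6% were called higher and 32.3% lower. Beside EP300 itself, KAT2A (-0.24 ± 0.03) and KAT6B (-0.12 ± 0.04) fell, and KAT2B (0.59 ± 0.07) and NCOA3 (0.62 ± 0.03) rose. NCOA3, a nuclear receptor coactivator, stood at 135, 139.9 and 130.1 CPM in NS1 and 210, 201 and 209.5 CPM in EP300 KD1, separate between groups. HDAC9 fell from 9.67 ± 0.975 to 3.12 ± 0.135 CPM, and the other 6 deacetylases called lower fell by at most 0.36 on the log2 scale. Of 11 partners and acetyl readers tested 3 rose, 2 fell and 6 were not called. CITED1, a partner of p300, rose from 0.38 ± 0.123 to 1.05 ± 0.105 CPM, and the Mediator subunit MED12 rose by less (0.31 ± 0.03). CITED4 (-0.49 ± 0.05) and SMARCA4 (-0.37 ± 0.03), the ATPase of a remodelling complex, fell. ARID1A and KMT2D were not called. Nuclear receptors use p300 as a coactivator. On their list, which also holds AHR, a receptor for aromatic ligands outside that family, 10 of 17 genes tested fell and 3 rose. AHR stood at 142, 138.3 and 137.5 CPM in NS1 and 60.4, 60.8 and 64.2 CPM in EP300 KD1. RARG fell from 134.7 ± 0.919 to 63.8 ± 1.37 CPM and THRB from 44.1 ± 1 to 21.3 ± 0.52 CPM, whereas VDR (0.00 ± 0.03) and NR3C1 (0.03 ± 0.03) were not called.

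Among metabolic genes, most of the hypoxia response rose and most of the amino acid response fell. Of 13 hypoxia genes tested 10 rose, with a median of 0.51: NDRG1 stood at 42.8, 40.8 and 48.8 CPM in NS1 and 221, 206.2 and 220.6 CPM in EP300 KD1, CA12, a carbonic anhydrase, at 40.9, 44.3 and 42.9 CPM in NS1 and 133.4, 124 and 130.6 CPM in EP300 KD1, and HIF1A at 563.1, 587.8 and 576.8 CPM in NS1 and 803.3, 786.4 and 810.8 CPM in EP300 KD1. Each was higher in every EP300 KD1 library. EGLN3 fell (-0.69 ± 0.22) but was not called without NS1 replicate 3, at -0.44, without EP300 KD1 replicate 2, at -0.49, or with both controls pooled, at -0.08, and CA9 and ADM were not called. Of 21 genes of glucose uptake and glycolysis 11 rose, 6 fell and 4 were not called, with a median of 0.05. The glucose transporter SLC2A3 stood at 6.48, 5.84 and 5.91 CPM in NS1 and 53.1, 50 and 56.8 CPM in EP300 KD1, the enolase ENO2 rose by 2.79 ± 0.08 and the main transporter SLC2A1 fell (-0.35 ± 0.02). Of 18 sterol synthesis genes 9 rose and 4 fell, none by 2-fold, among them INSIG1 (0.86 ± 0.03) upwards and DHCR7 (-0.46 ± 0.03) downwards. Of 11 fatty acid synthesis genes 7 rose and 2 fell, among them FADS1 (0.64 ± 0.03) upwards and SREBF1 (-0.61 ± 0.04) downwards. ACACB (1.18 ± 0.34) was the 1 that rose at least 2-fold. Of 15 genes of the ATF4 and unfolded protein responses 10 fell and 5 rose. CHAC1, which degrades glutathione, stood at 43.2, 36.9 and 39.7 CPM in NS1 and 9.15, 11.7 and 9.52 CPM in EP300 KD1 and DDIT3, which encodes CHOP, at 22.9, 21 and 20.9 CPM in NS1 and 8.86, 9.12 and 7.9 CPM in EP300 KD1, whereas the chaperone HSPA5 rose from 772.4 ± 15.1 to 1143 ± 15.7 CPM. Amino acid transporters fell in 7 of 11 tested: beside SLC7A5, the cystine transporter SLC7A11 stood at 204.5, 198.8 and 194.9 CPM in NS1 and 84.4, 87.4 and 86.8 CPM in EP300 KD1, and SLC6A14 fell from 79.6 ± 1.17 to 4.98 ± 0.396 CPM.

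Of 23 NRF2 targets 12 fell and 8 rose; both ferritin chains rose, FTL from 835.3 ± 9.41 to 1635 ± 23 and FTH1 from 2021 ± 39.9 to 2893 ± 62.9 CPM. AKR1C1 rose (1.17 ± 0.04) but shares near-identical sequence with its paralogues. Ribosomal protein genes fell in all 18 tested and respiratory chain genes in 21 of 22, each by little, with medians of -0.2 and -0.21. RPL3 went from 3090 ± 72.6 to 2643 ± 34.8 CPM and COX7B from 172.3 ± 4.58 to 124.2 ± 4.76 CPM. With upper-quartile scaling, which put the median of all genes at 0.014 instead of -0.006, the ribosomal median was -0.18 and the respiratory chain median -0.19, so that both stayed negative. Of 12 S100 proteins tested 6 rose and 2 fell. S100A9 stood at 20.6, 20.2 and 22.6 CPM in NS1 and 81, 67.3 and 76.8 CPM in EP300 KD1, S100A8, its partner in calprotectin, rose from 1.43 ± 0.132 to 10.2 ± 1.05 CPM, and S100P fell from 491.4 ± 32.6 to 107.6 ± 9.22 CPM. Of the checkpoint and adhesion ligands CD70 rose (0.91 ± 0.05) and PDCD1LG2, the ligand PD-L2, rose from 1.44 ± 0.403 to 6.2 ± 0.153 CPM; CD274 has several rows and is not counted. Long non-coding genes made up 655 of those tested, of which 193 were called higher and 125 lower. Both shares were below the 32.6% higher and 32.3% lower over all genes tested.

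These values were also tested as the difference from EP300 KD2 against NS2, which shares no library with the first comparison. Each change is taken against its own control, so a gap between NS1 and NS2 enters this difference too. EP300 itself changed by -0.86 ± 0.04 with the second hairpin and by -0.68 ± 0.03 with the first. Of the 8711 genes called with EP300 KD1, 4380 (50.3%) were called in the same direction with EP300 KD2, which is 56.4% of its 7762 calls (57.8% of genes tested, 27.9% higher and 29.9% lower), and 1500 were called in the opposite direction. The difference itself was called for 6818 genes (50.8%), 3915 higher (29.2%) and 2903 lower (21.6%) in EP300 KD1. Of the 785 genes at least 2-fold higher, 506 were called higher and 38 lower with EP300 KD2, and of the 582 at least 2-fold lower, 473 were called lower and 18 higher. The controls differed as well: 3697 genes (27.5%) were called between NS2 and NS1, 1904 higher (14.2%) and 1793 lower (13.4%) in NS2, and 14 (0.104%) and 160 (1.19%) by at least 2-fold.

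Replication genes moved in opposite directions with the hairpins. With EP300 KD2 17 licensing genes, 14 polymerase and clamp genes and 8 nucleotide genes were called higher, and the difference was called, with EP300 KD1 below, for 17 of 18, 16 of 17 and 9 of 9. MCM3 changed by -1.11 ± 0.03 with EP300 KD1 and by 0.44 ± 0.03 with EP300 KD2, and PCNA by -0.73 ± 0.03 and 0.41 ± 0.03. Mitotic genes were called higher in 23 of 24 by EP300 KD2, and the difference was called for 23 in that direction. All 12 S100 genes tested differed in the other direction, S100A9 changing by 1.82 ± 0.06 and -0.46 ± 0.07. The difference was also called higher in EP300 KD1 for 7 of 9 laminin chains, all 5 integrin alpha chains and 11 of 13 hypoxia genes. LAMA3 changed by 1.02 ± 0.04 and -0.24 ± 0.04, and CA12 by 1.60 ± 0.04 and -0.16 ± 0.04. It was called higher too for 14 of 15 genes of the ATF4 and unfolded protein responses, but most of these fell with both hairpins. With EP300 KD1 10 were called lower and 5 higher (median -0.31), and with EP300 KD2 13 were called lower and 0 higher (-0.81). With EP300 KD2 4 of 11 collagen genes were called higher and 7 lower (median -0.23), and of 11 cross-linking enzymes 3 and 6 (-0.26). Of 17 matrix glycoproteins 10 were called higher and 4 lower (0.81), and of 14 NF-kB feedback genes and targets 7 and 2 (0.09). The difference was called higher in EP300 KD1 for 9, 9, 10 and 10 of these and lower for 1, 1, 4 and 1. The 15 epithelial factors and 10 secreted products that fell with EP300 KD1 were also called lower with EP300 KD2, but by other amounts. The difference was called for 14 of 17 epithelial factors, 8 higher and 6 lower in EP300 KD1, and for 6 of 10 secreted products, 2 higher and 4 lower. KRT15 changed by -4.21 ± 0.03 and -4.19 ± 0.03, with a difference of -0.01 ± 0.05 (adjusted p = 0.837).

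**Figure D4:**
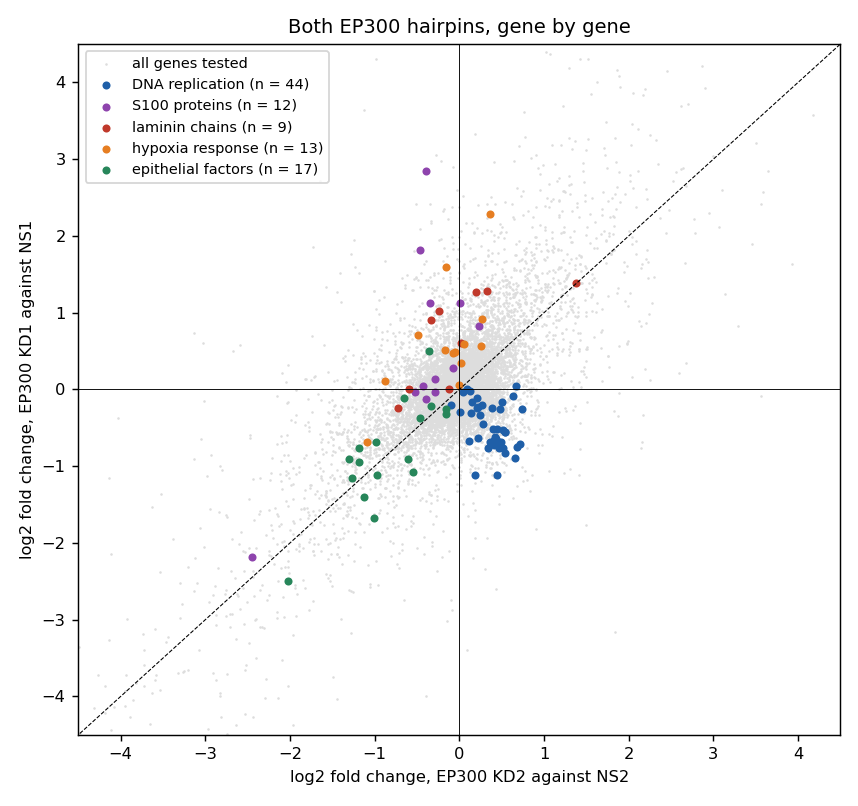
Each point is a gene tested, placed by its log2 fold change in EP300 KD2 against NS2 (x axis) and in EP300 KD1 against NS1 (y axis), with 5 gene groups in colour and equality as the dashed line; 42 genes beyond the axis limit of 4.5 are not drawn. DNA replication genes lie mainly at the lower right, lower with the first hairpin and higher with the second, S100 proteins mainly above the line, and epithelial factors mainly at the lower left.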

How the data were processed

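Per the labels' protocols, RNA taken with Trizol went into stranded Illumina TruSeq mRNA libraries. Per the submitters' processing notes, the authors used HISAT2 2.1.0 and featureCounts with hg38; the sources used here give neither its version nor the annotation or strand setting. The values deposited by the authors are raw whole-number counts, not normalised, for 29094 RefSeq accession rows. Symbols were matched through the RefSeq gene table (28130 rows) and GENCODE (489), and 475 rows with 0.313% of counts had none. For 2309 symbols there are several rows (0.972% of counts), which are not counted in gene lists. No pair of replicates agreed within sampling noise (chi-square over its degrees of freedom was 1.84 to 4.45 in the 2 groups), and each was kept.

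Counts were analysed in R 4.3.3 with edgeR 4.0.16: filterByExpr at its defaults, TMM scaling, and a quasi-likelihood fit over all 12 libraries with 1 coefficient per group, with Benjamini-Hochberg adjustment over 13424 genes and a threshold of 0.05. The common biological coefficient of variation was 0.03. On simulated counts for this comparison (13161 genes tested, 50 changed at each fold) the test called 28% of genes changed 1.1-fold, 46% at 1.25-fold, 80% at 1.5-fold, 80% at 2-fold and 0.0231% of unchanged genes. Changed genes lost to the filter counted as not called. Far fewer genes were changed there than the 8711 called in the data, so the adjusted threshold was stricter and these shares do not carry over. Intervals and floors of counts cover counting error only.

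The 43 gene lists and the members were chosen with earlier results of these data known, and no set test was run. Named genes were EP300 and CREBBP, the 12 of largest fold and the 8 of largest CPM difference in each direction (called, at least 1 CPM on average, libraries separated), up to 5 called members of smallest p per list group, uncalled members, and the 5 genes per direction with the largest difference between hairpins among those called in opposite directions. Called members outside this rule, such as those completing a small count, were named after their values were seen. Alternatives covered scaling factors, filters, DESeq2 1.42.0, limma-voom (limma 3.58.1), only the 6 libraries, a replicate block, pooled controls, rows of unique symbols and each library left out. Results for several genes of these lists are not reported here.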

Additional observations from a re-analysis of the deposited data

Results flagged for a closer look

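The changes with the hairpins, each against its own control, differed by a test of the difference itself for many genes. A gap between NS1 and NS2 is part of each such difference. In 1500 genes the hairpins were called in opposite directions with a called difference, and the 10 genes with the largest differences, 5 in each direction, are given here as values. FPR1, a formyl peptide receptor of phagocytes, changed by 1.94 ± 0.10 with EP300 KD1 and by -1.24 ± 0.11 with EP300 KD2, a difference of 3.19 ± 0.15. ALOX15B, a lipoxygenase, changed by 1.34 ± 0.06 and -1.57 ± 0.07, a difference of 2.91 ± 0.09. TREM1, an activating receptor of myeloid cells, changed by 1.59 ± 0.15 and -1.23 ± 0.19, a difference of 2.82 ± 0.24. ANKS1B, an ankyrin repeat protein, changed by 1.52 ± 0.14 and -1.19 ± 0.16, a difference of 2.71 ± 0.21. IL1A, an interleukin 1 ligand, changed by 2.32 ± 0.05 and -0.19 ± 0.05, a difference of 2.51 ± 0.07, and stood at 15.3 CPM in NS1 and 36.2 CPM in NS2.

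The other 5 genes fell with EP300 KD1 and rose with EP300 KD2. UCA1, a long non-coding RNA, changed by -2.60 ± 0.16 and 0.43 ± 0.16, a difference of -3.03 ± 0.23, and stood at 4.94 CPM in NS1, 1.38 CPM in NS2, 0.811 CPM in EP300 KD1 and 1.87 CPM in EP300 KD2. TERT, the catalytic subunit of telomerase, changed by -1.82 ± 0.24 and 0.91 ± 0.20, a difference of -2.72 ± 0.31. E2F2 changed by -2.20 ± 0.07 and 0.16 ± 0.06, a difference of -2.36 ± 0.10. MNS1, a protein of meiosis and cilia, changed by -1.26 ± 0.10 and 0.68 ± 0.09, a difference of -1.93 ± 0.13. SLC8A1, a sodium and calcium exchanger, changed by -1.06 ± 0.15 and 0.78 ± 0.14, a difference of -1.85 ± 0.20. In UCA1, TERT, E2F2, MNS1 and SLC8A1 NS2 was also called below NS1.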

How the results depend on the processing

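Counts of called genes stayed within 1.5 times their values under every alternative run. For EP300 KD1 against NS1 the count ran from 8003 (DESeq2) to 9041 (no low-count filter) against 8711, at least 2-fold from 919 (mean of at least 1 CPM) to 1818 (no filter) against 1367, and list members called from 701 to 755 against 733. Leaving out 1 library of the 6 gave 8209 to 8384 genes called. The difference between the hairpins gave 5996 (DESeq2) to 6897 genes and NS2 against NS1 2886 to 3771. Called higher made up 49.1% to 53.6% of calls. With both controls pooled 15 calls took the opposite direction, and no call did so under another setting run. Of 442 named genes, ITGA6 turned to -0.05 and MMP2 to 0.03 with pooled controls, and 12 lost their call under at least 1 setting: PLEC, CLDN23, EGLN3, MMP2, CASP1, ID3, DKK1, NKD1, HDAC1, SIRT1, POSTN and KDR. The cause was not tested.

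The replicate block gave 8748 genes called for EP300 KD1 against NS1, 1368 at least 2-fold, 6858 for the difference, 3764 between the controls and 737 list members. Libraries of the same number showed no common deviation across genes (r of -0.04 to 0.02 between NS1 and EP300 KD1), and 1 of 3 correlated best with its own number. Whether libraries of the same number were cultured or prepared together cannot be told from this check. Of genes under 1 CPM on average 35.5% were called.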
